A study of Danio rerio with 4 samples.

Results

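Troponin I is encoded in zebrafish by a family of paralogs, and 10 of them were examined here in whole embryos with a deletion in nexn, the gene of the actin-binding protein Nexilin. The genes were taken by symbol from the deposited gene tables, and all 10 were found among 32057 genes: 4 of the slow type by symbol (tnni1a, tnni1b, tnni1c and tnni1d) and 6 of the fast type, in a tnni2a group of 4 copies and a tnni2b group of 2. RNA was measured at 72 hpf (hours post fertilization) in 2 pools of nexn+/+ (WT) and 2 pools of nexn-/- (nexn knockout) embryos, with 25 embryos in each pool. The nexn-/- line carries a CRISPR/Cas9-made deletion of 32 nucleotides in exon 2 of nexn, and no other allele or agent is named for either genotype. Each genotype was bred from its own homozygous parents, which were siblings by descent and housed apart, so that genotype, parents and tank cannot be told apart.

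Troponin I is the inhibitory subunit of the troponin complex on the thin filament of striated muscle. At low calcium it holds actin and tropomyosin in a state that blocks myosin, and calcium binding to troponin C releases this block, while troponin T anchors the complex to tropomyosin. In mammals the slow skeletal form (TNNI1), the fast skeletal form (TNNI2) and the cardiac form (TNNI3) come from separate genes, and TNNI1 is also made by the fetal heart. Fast muscle makes up most of the trunk of a zebrafish embryo, a thin superficial layer is slow muscle, and the heart is small beside both. In the gene order of the GRCz12tu assembly the 4 tnni2a copies stand in a row with 0 genes between them, and so do the 2 tnni2b copies.

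The libraries held between 19413597 and 21956272 estimated counts. Levels are given as CPM (counts relative to the size of the library, after adjustment by the TMM factors of edgeR) where a gene is compared between libraries, and as TPM (the authors' values, which also divide by transcript length) where genes are compared with each other. Log2(FC) stands for the log2 fold change of nexn-/- against nexn+/+ embryos. Genes were tested with the quasi-likelihood method of edgeR, with p-values adjusted after Benjamini and Hochberg over 20312 genes, and those with an adjusted p under 0.05 and a log2(FC) beyond 0.5 are described as called. The share of genes called was 30.6%, made up of 16.7% with a higher and 13.9% with a lower level in the mutant. The targeted gene nexn was at 96.3 and 75.4 CPM in the nexn+/+ pools, against 40.2 and 51.0 CPM in the nexn-/- pools, with a log2(FC) of -0.91 and a standard error of 0.168 (adjusted p = 0.00737, edgeR), so reads of nexn were still counted in the mutant. Replicates are called biological by the labels, but whether their pools came from separate clutches is not stated, so p-values measure the spread between these pools.

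Muscle markers differed between the nexn+/+ replicates, as did the most abundant troponin I genes. Summed over 27 tested genes, markers of fast skeletal muscle held 119000 CPM in nexn+/+ replicate 1 and 55360 CPM in replicate 2, against 71540 and 75990 CPM in the nexn-/- libraries. Markers of slow skeletal muscle (12 genes) held 2047 and 976 CPM in the nexn+/+ pools against 2582 and 2711 CPM in the nexn-/- pools. Of the fast markers 1 of 27 was called higher and 0 lower, with a median log2(FC) of -0.04. Of the slow markers 4 of 12 were called higher and 0 lower, with a median of 0.76. Of all tested genes 16.7% were called higher and 13.9% lower. The slow median was 1.395 without nexn+/+ replicate 1 and 0.30 without replicate 2. Nexn+/+ replicates differed by more than 2 times in 10.5% of all tested genes, and nexn-/- replicates in 1.89%. In whole embryos, fewer muscle cells and less RNA per muscle cell cannot be told apart.

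Of the 10 troponin I genes, 9 had enough counts for a test, and 6 of these were called. Beside them, 30.6% of all tested genes were called (16.7% higher and 13.9% lower). The 5 called higher were the fast-type genes tnni2a.1, tnni2a.2 and tnni2b.1 and the slow-type genes tnni1b and tnni1d, and the 1 called lower was tnni2a.3. All 3 tested members that were not called, tnni2a.4, tnni2b.2 and tnni1c, lay at overlapping levels in the genotypes in TMM-adjusted CPM. For tnni2b.2 and tnni1c this depended on the scaling. With library size alone and in TPM, both of their nexn-/- libraries lay above both nexn+/+ libraries. No share of all genes is given for that order in those units. In TMM-adjusted CPM the 5 higher members had both nexn-/- libraries above both nexn+/+ libraries, an order found in 36.4% of all tested genes. The order of tnni2a.3 (both below) was found in 34.4%, so that 70.9% of all genes did not overlap. The median log2(FC) of the 9 members was 0.67, beside 0.02 over all genes tested.

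The calls depended on which library was left out, where the lone library left in a group was assumed to vary like the other pair. Without nexn+/+ replicate 1, 8 members were called higher and 1 lower, beside 24.3% and 17.6% of all genes (41.9% in either direction). Without nexn+/+ replicate 2, 4 members were called higher and 1 lower, beside 21.1% and 15.8% of all genes (36.9% in either direction). Without either nexn-/- library the spread came from the nexn+/+ pair alone, and 0 members and 4 genes in all (0.0197%) passed both limits by edgeR, the lowest adjusted p of a member was 0.0641 and 0.0635, and 4 and 6 members had an unadjusted p under 0.05.

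**Figure D1:**
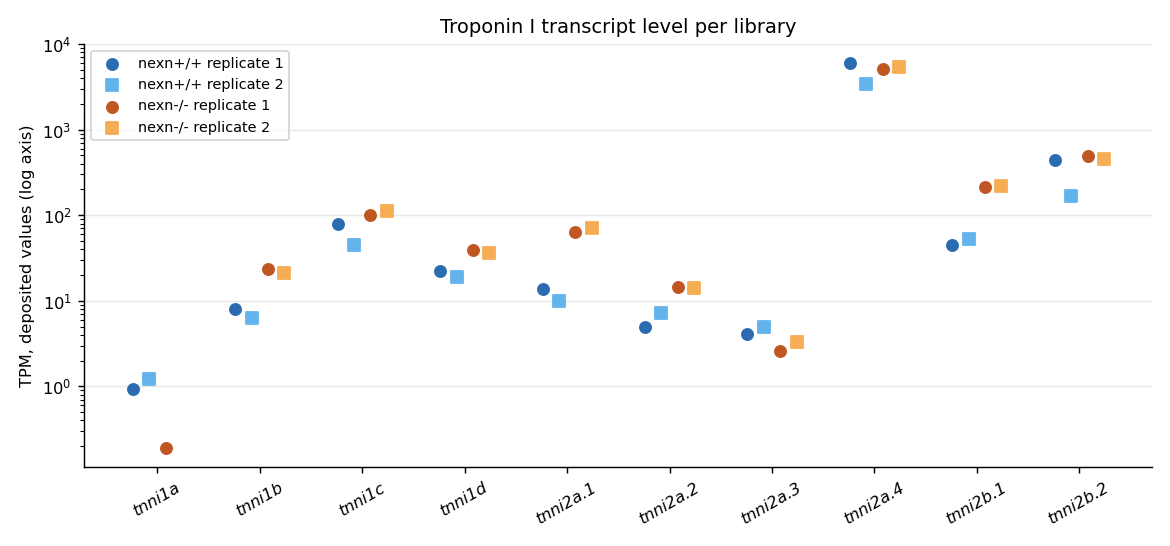
Level of each troponin I gene in each library as deposited TPM, on a log axis. Each point is 1 library, and the nexn-/- value of replicate 2 for tnni1a, which is 0, is not drawn. tnni2a.4 lies at 3388 TPM or above in every library. The nexn-/- points lie above the nexn+/+ points for tnni1b, tnni1d, tnni2a.1, tnni2a.2 and tnni2b.1. In this unit they also do for tnni1c and tnni2b.2, which overlap in TMM-adjusted CPM. No share of all genes is given for this order in TPM, and in TMM-adjusted CPM it was found in 36.4%.

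The family was dominated by one gene. The fast-type copy tnni2a.4 (ENSDARG00000029069) stood at 5974 and 3388 TPM in nexn+/+ and at 5065 and 5394 TPM in nexn-/- embryos, which was between 84.2% and 91.5% of the summed TPM of the 10 genes in each library. Next in order in nexn+/+ embryos came tnni2b.2, then tnni1c and tnni2b.1, which overlapped (79.5 and 45.1 TPM against 44.9 and 52.6), then tnni1d, tnni2a.1 and tnni1b. The lowest places were those of tnni2a.2 (4.90 and 7.14 TPM), which overlapped both tnni1b and tnni2a.3, of tnni2a.3 (4.05 and 5.0 TPM) and of tnni1a. In nexn-/- embryos no neighbours in this order overlapped, and tnni2a.1 (63.6 and 71.8 TPM) stood above tnni1d (39.5 and 35.9 TPM). A count alone would misplace tnni2a.2, because its effective length (the transcript length by which a count is divided) was 3403 to 3421 nucleotides, against 519 to 543 for tnni2a.1.

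The major fast copy tnni2a.4 was at 3224 and 1506 CPM in the nexn+/+ pools, against 2156 and 2435 CPM in the nexn-/- pools. Both nexn-/- libraries lay between the nexn+/+ replicates, which differed from each other 2.14-fold. Its log2(FC) was -0.04 ± 0.334 (± standard error, edgeR, adjusted p = 0.936), and the sign turned, uncalled, under 5 of 10 alternatives. The value turned with the nexn+/+ library that was left out, to 0.61 without replicate 1 and -0.49 without replicate 2.

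tnni2b.2 (ENSDARG00000029995), the second fast-type gene by level, was at 286 and 94.4 CPM in the nexn+/+ pools, against 254 and 245 CPM in the nexn-/- pools. With library size alone the nexn+/+ pools were at 252.1 and 96.48 CPM against 270.8 and 255.5 CPM, without overlap. Its nexn+/+ replicates stood 3.03-fold apart, the widest gap of the 9 tested members, while its nexn-/- replicates stood 1.04-fold apart. The log2(FC) was 0.39 ± 0.439 (± standard error, edgeR, adjusted p = 0.524), with 1.41 and -0.20 when nexn+/+ replicate 1 or 2 was left out.

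The neighbouring copy tnni2b.1 (ENSDARG00000035958) behaved differently in the same libraries. It was at 35.0 and 34.2 CPM in the nexn+/+ pools, against 132 and 142 CPM in the nexn-/- pools. Its nexn+/+ replicates were thus only 1.02-fold apart, and both nexn-/- libraries were far above them. The log2(FC) was 1.99 ± 0.109, a 3.97-fold rise (± standard error, edgeR, adjusted p = 0.0006), and leaving out any one library moved it only within 1.94 to 2.04. In TPM, tnni2b.1 reached 10.3% and 31.0% of the level of tnni2b.2 in nexn+/+ embryos and 43.8% and 48.2% in nexn-/- embryos. This ratio of copies was higher in both nexn-/- libraries, and it was not tested.

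Of the 3 minor tnni2a copies, tnni2a.1 (ENSDARG00000045592) changed most. It was at 7.59 and 4.59 CPM in the nexn+/+ pools, against 28.3 and 34.0 CPM in the nexn-/- pools. The groups did not overlap, and the log2(FC) of 2.36 ± 0.239, a 5.14-fold rise, was the largest among the tested members (± standard error, edgeR, adjusted p = 0.00136). Beside tnni2a.4 it remained minor, at 0.229% and 0.292% of the TPM of that copy in nexn+/+ and 1.26% and 1.33% in nexn-/- embryos.

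tnni2a.2 (ENSDARG00000005841) was at 17.7 and 21.7 CPM in the nexn+/+ pools, against 42.0 and 42.7 CPM in the nexn-/- pools, with no overlap. The log2(FC) was 1.1 ± 0.131, a 2.15-fold rise (± standard error, edgeR, adjusted p = 0.00185). Unlike the major copies, it was lower in nexn+/+ replicate 1 than in replicate 2.

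tnni2a.3 (ENSDARG00000013752) went the other way. Its estimated counts were 80 and 96 in nexn+/+ against 43 and 63 in nexn-/- pools, or 4.53 and 4.84 against 1.93 and 2.76 CPM. Both nexn-/- libraries were lower, with a log2(FC) of -0.998 ± 0.277 (± standard error, edgeR, adjusted p = 0.0315). The call was the weakest of the 6, and it was lost with library size alone (log2(FC) -0.86, adjusted p = 0.0564), with the libraries scaled to rpl13 (-0.78, adjusted p = 0.0789) and with effective lengths as offsets (-0.79, adjusted p = 0.0656).

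Whether reads were shared between these copies can be read in part from the counts, since a read split between genes leaves an estimated count that is not whole. In 8 members every count was whole to within 0.005. In tnni2a.2 and tnni2a.4 the largest distance from a whole number was 0.08 counts. A shared read given almost wholly to the more abundant copy would also leave near-whole counts, so these values do not exclude sharing.

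**Figure D2:**
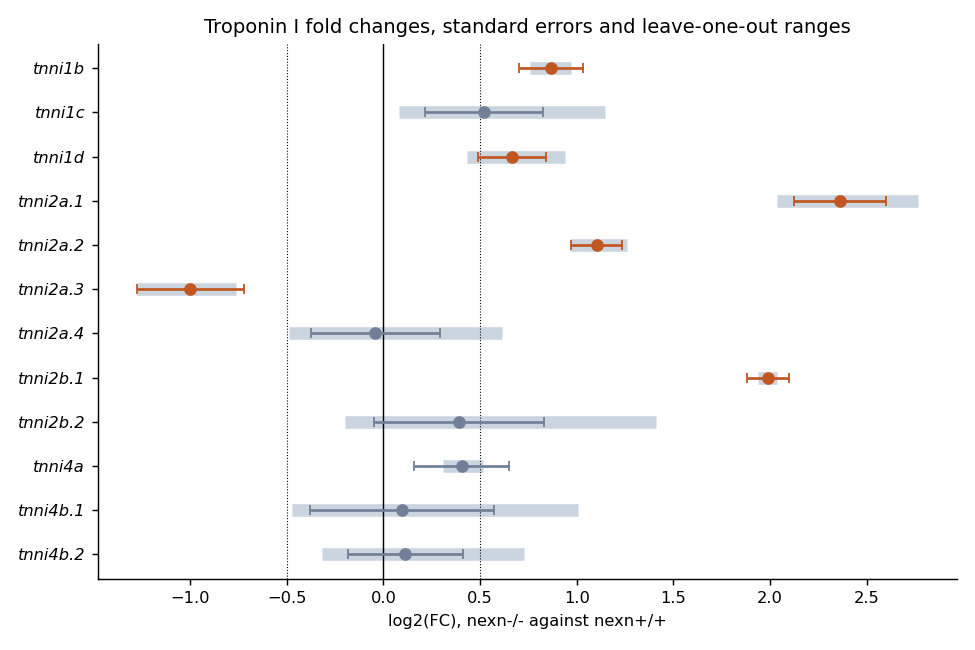
Log2(FC) of the 9 tested members and of the 3 tnni4 genes. Points are estimates of edgeR with bars of 1 standard error, orange where called, and the grey bands span the values from leaving out single libraries. The bands are narrow for tnni2b.1 and tnni1b and cross 0 for tnni2a.4, tnni2b.2, tnni4b.1 and tnni4b.2.

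Among the slow-type genes, tnni1b and tnni1d rose and tnni1c was not called. tnni1b (ENSDARG00000052708), known from the embryonic zebrafish heart, was at 8.38 and 7.66 CPM in the nexn+/+ pools, against 13.6 and 15.7 CPM in the nexn-/- pools. The groups were well apart, with a log2(FC) of 0.87 ± 0.164, a 1.82-fold rise (± standard error, edgeR, adjusted p = 0.00819).

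tnni1d (ENSDARG00000073766) was at 22.8 and 16.1 CPM in the nexn+/+ pools, against 31.9 and 29.8 CPM in the nexn-/- pools. Its log2(FC) was 0.67 ± 0.174, a 1.59-fold rise (± standard error, edgeR, adjusted p = 0.0257). Without nexn+/+ replicate 2 the log2(FC) was 0.43, under the limit of 0.5.

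tnni1c (ENSDARG00000042559), the most abundant of the slow-type genes, was at 38.6 and 18.5 CPM in the nexn+/+ pools, against 37.4 and 44.2 CPM in the nexn-/- pools. In these CPM the upper nexn+/+ library reached into the nexn-/- range. With library size alone it did not (33.95 and 18.9 against 39.85 and 46.0 CPM), nor in TPM. The log2(FC) was 0.52 ± 0.306 (± standard error, edgeR, adjusted p = 0.23). It would be called with library size alone (log2(FC) 0.70, adjusted p = 0.0405) and with the libraries scaled to rpl13 (log2(FC) 0.78, adjusted p = 0.0135), and it was not called under the other 8 alternatives. The value rested on the nexn+/+ library left out, with a log2(FC) of 1.15 (adjusted p = 1.65e-15, edgeR) without replicate 1 and 0.0809 (adjusted p = 0.621) without replicate 2.

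tnni1a (ENSDARG00000000474) was barely detected, with counts of 5 and 6 in nexn+/+ against 1 and 0 in nexn-/- pools, and was removed by the filter on low counts. Over the pooled libraries, 11 counts against 1 gave a ratio of 0.0837 of nexn-/- to nexn+/+ (exact 95% interval 0.00194 to 0.576). That interval covers counting error alone and not the spread between pools.

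Other genes with a troponin I symbol outside these subfamilies were tnni4a, tnni4b.1 and tnni4b.2, and 0 of the 3 were called (0 had an unadjusted p under 0.05, by edgeR and by DESeq2). The most abundant, tnni4b.2 (ENSDARG00000036671), was at 131 and 63.8 CPM in the nexn+/+ pools, against 104 and 107 CPM in the nexn-/- pools, a log2(FC) of 0.11 ± 0.298 (± standard error, edgeR, adjusted p = 0.8). Like tnni2a.4, it had both nexn-/- libraries between the nexn+/+ replicates in CPM. In TPM, unlike tnni2a.4, both lay above (187 and 104 TPM in nexn+/+ against 192 and 188 TPM in nexn-/- pools).

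Summed by subfamily, the tnni2a genes held 3254 and 1537 CPM in the nexn+/+ pools against 2228 and 2514 CPM in the nexn-/- pools, a log2 ratio of means of -0.01, which was 0.17 with library size alone and 0.18 in deposited TPM. The tnni2b genes held 321 and 129 CPM against 387 and 387 CPM, a ratio of 0.78, and the tnni1 genes held 70.1 and 42.6 CPM against 82.9 and 89.7 CPM, a ratio of 0.62. For tnni2b and tnni1 both nexn-/- sums lay above both nexn+/+ sums, an order found in 36.4% of all tested genes taken singly. The most abundant gene of each, tnni2b.2 and tnni1c, overlapped in the same CPM. Without nexn+/+ replicate 1 the ratios were 0.63, 1.59 and 1.02, and without replicate 2 they were -0.46, 0.27 and 0.30.

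Shares within the family do not depend on how libraries are scaled, but each is divided by the troponin I total of its library. That total was 3645 and 1708 CPM in the nexn+/+ pools, so a member that does not follow it differs in share between them. By counts, tnni2a.4 took 88.4% and 88.2% of the family in nexn+/+ and 79.9% and 81.4% in nexn-/- embryos. The other fast-type genes together took 9.64% and 9.35% in nexn+/+ and 17.0% and 15.6% in nexn-/- embryos, and the slow-type genes 1.92% and 2.49% against 3.07% and 3.0%. The nexn+/+ replicates, which differed 2.14-fold in the CPM of tnni2a.4, were thus alike in its share, and both nexn-/- libraries were lower.

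tnni2b.1 held 0.959% and 2.00% of the troponin I counts in nexn+/+ and 4.90% and 4.75% in nexn-/- embryos, and tnni2a.1 held 0.208% and 0.269% against 1.05% and 1.14%. tnni2b.2 held 7.86% and 5.53% against 9.43% and 8.20%, and tnni1c held 1.06% and 1.08% against 1.39% and 1.48%. Neither of these last 2 genes was called in the fit over all genes, and the shares were not tested. With tnni1b, tnni1d and tnni2a.2, which had the same order, 7 tested members took larger shares in both nexn-/- libraries. When the counts of every tested gene were divided by the same troponin I sum, 19.0% of genes were higher and 19.9% lower in both nexn-/- libraries. That sum itself stood at 3645 and 1708 CPM in nexn+/+ against 2698 and 2991 CPM in nexn-/- pools. Genes that do not vary with it therefore overlap more often, so these percentages are no like background for the members. In CPM the same orders were found in 36.4% and 34.4% of all genes. Shares add up to a whole, so a smaller share of tnni2a.4 and larger shares of the others go together by arithmetic. The shares alone do not tell which of them changed. tnni2a.3 held 0.124% and 0.283% of the counts in nexn+/+ and 0.0715% and 0.0921% in nexn-/- embryos.

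**Figure D3:**
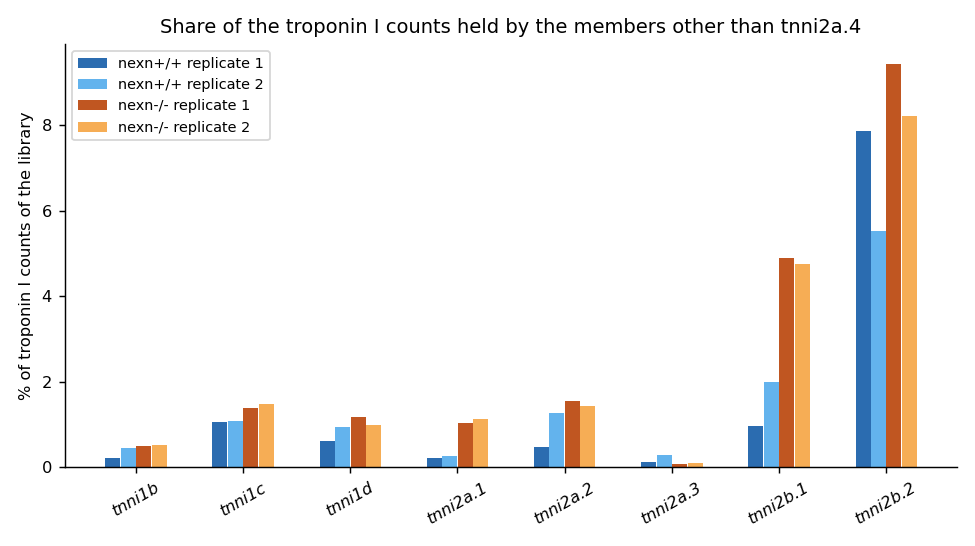
Share of the troponin I counts of each library (in %, axis from 0) taken by the 8 tested members other than tnni2a.4. Each bar is 1 library. All shares are higher in both nexn-/- libraries except that of tnni2a.3, which is lower.

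Members also differed in how far apart the nexn+/+ replicates stood. In tnni2a.4, tnni2b.2, tnni1c, tnni4b.1 and tnni4b.2 replicate 1 was at least 2.06-fold above replicate 2, as in the fast muscle markers, whose median log2 ratio of the replicates was 1.25. In tnni2b.1, tnni1b, tnni2a.2 and tnni2a.3 the replicates were within 1.23-fold of each other, and in tnni1d and tnni2a.1 they were 1.42-fold and 1.66-fold apart. None of the 5 genes with a gap over 2 in TMM-adjusted CPM was called. The 6 called members were all among those with smaller gaps. tnni4a, with a gap of 1.16-fold, was not called either. Among the other thin filament genes, tnnt2c and tnnt2e were called higher despite gaps of 2.13-fold and 2.09-fold. The rest of those with a gap over 2 were not called. A wide gap between replicates also widens the error of the fold change, so the calls and the gaps are not independent. The gaps also depended on the scaling. With library size alone the nexn+/+ pools were under 2-fold apart for tnni2a.4 (2837 and 1539 CPM), tnni1c (33.95 and 18.9) and tnni4b.2 (115.5 and 65.26). In that scaling tnni1c would be called. Of all tested genes 30.6% were called in the main fit, and the share among those with a wide gap is not given.

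**Figure D4:**
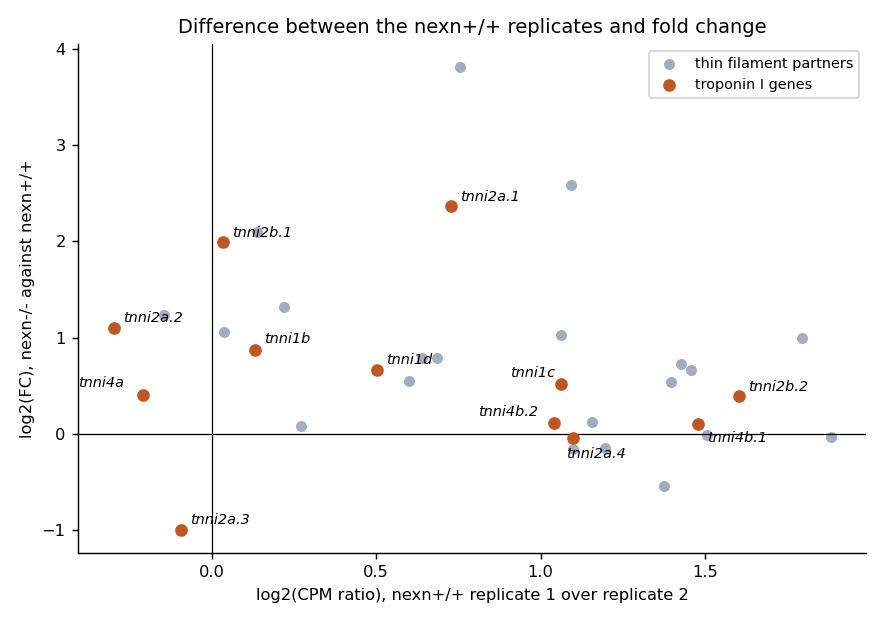
Log2 ratio of CPM between the nexn+/+ replicates (horizontal axis) and log2(FC) of nexn-/- against nexn+/+ embryos (vertical axis). Orange points are the 12 troponin I genes drawn and grey points the other thin filament genes. tnni2b.1 lies near 0 on the horizontal axis at a log2(FC) of 1.99, and tnni2b.2 lies at 1.6 with a log2(FC) of 0.39.

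The length of the transcripts counted for tnni1b also differed. Estimated counts and FPKM values together give the effective length of a gene in a library, a mean over its transcript isoforms as the authors' counting weighted them. For tnni1b it was 984 and 1369 nucleotides in nexn+/+ and 681 and 849 nucleotides in nexn-/- embryos, a mean 0.65 times as long. With these lengths as offsets the log2(FC) of tnni1b was 1.46, against 0.87 without them. In tnni2a.3 the effective length was 1061 and 1082 against 882 and 960 nucleotides, and in the other 7 tested members the highest and lowest library differed by at most 1.05-fold. Over all genes with at least 1 TPM in each library, 1.59% had effective lengths that were lower in both nexn-/- libraries and on average under 0.8 times those of nexn+/+ embryos, a limit chosen after the values of tnni1b were seen.

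**Figure D5:**
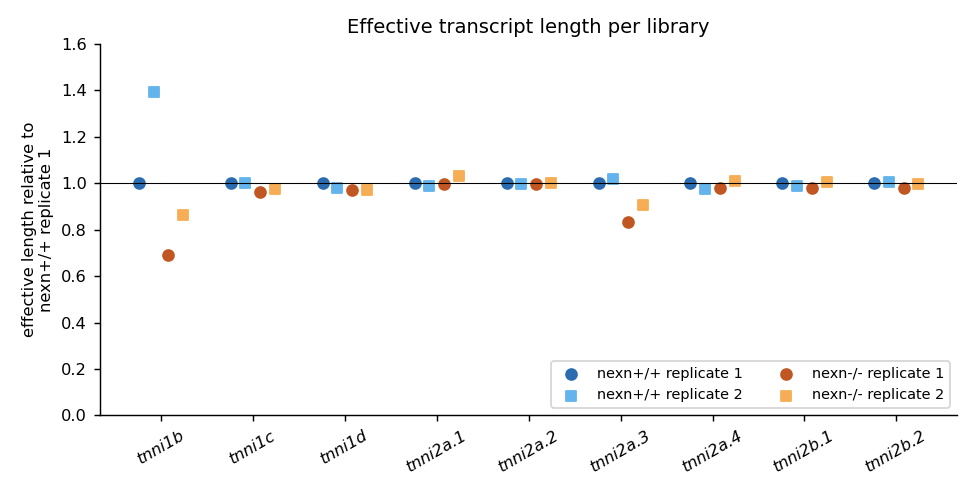
Effective length of the 9 tested members in each library, divided by that of nexn+/+ replicate 1 (vertical axis, from 0). Each point is 1 library. The points lie close to 1 except for tnni1b, which spreads 2.01-fold from lowest to highest, and tnni2a.3.

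Under the 10 alternatives of test, scaling, filter, block and length, the 5 higher members kept their call, tnni2a.3 kept it in 7, and tnni1c was called in 2. Of all genes, 27.9% were called by DESeq2, 31.6% by limma-voom, 31.0% with library size alone or the upper quartile, 30.7% with median-of-ratios scaling, 32.2% with rpl13, 24.6% without a filter, 32% with 1 CPM in 2 libraries, 30.3% with the replicate block and 29.5% with effective lengths as offsets. The share called lower was 9.25% with library size alone, 7.22% with rpl13 and 13.3% with effective lengths. With a log2(FC) limit of 1, 15.5% of all genes were called in either direction, and of the members tnni2a.1, tnni2a.2 and tnni2b.1 were called.

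The partners of troponin I on the thin filament were taken by symbol pattern (troponin T, troponin C, numbered tropomyosins and the acta1 and actc1 actins). Of 21 tested genes 9 were called higher and 0 lower, beside 16.7% and 13.9% of all tested genes. At an unadjusted p under 0.05, 0 were lower by edgeR and by DESeq2. The median log2(FC) of the 21 genes was 0.73, beside 0.02 over all genes tested. Leaving out nexn+/+ replicate 1 moved this median to 1.175, and leaving out nexn+/+ replicate 2 moved it to 0.28. Leaving out a nexn-/- library gave a median of 0.83 (replicate 1) or 0.64 (replicate 2). The calls lay in 3 of 8 troponin T genes, 1 of 3 troponin C genes, 5 of 5 numbered tropomyosins and 0 of 5 actins. The troponin C gene was tnnc1a, at a mean of 0.27 CPM in nexn+/+ against 3.8 CPM in nexn-/- pools. It passed the filter on low counts only through the nexn-/- pools, so its call is no support for a rise. The largest rises among genes of at least 10 CPM were those of tnnt2c (log2(FC) 2.59), tpm4a (1.32), tpm4b (1.23) and tpm1 (1.06). The value of tnnt2c was 3.23 without nexn+/+ replicate 1 and 2.13 without replicate 2. tnnt2c, a troponin T gene, was at 8.45 ± 4.32 CPM (SD, n = 2) in nexn+/+ against 50.5 ± 2.32 CPM in nexn-/- pools.

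The abundant partners stood like tnni2a.4. The 4 highest were actc1b, tnnt3b (fast troponin T), tnnc2 (fast troponin C) and acta1b, none of which was called. Fast troponin C, tnnc2, was at 4038 ± 2075 CPM (SD, n = 2) in nexn+/+ against 3618 ± 336 CPM in nexn-/- pools, with a log2(FC) of -0.16. For tnnt3b the log2(FC) was -0.14, for actc1b -0.01 and for acta1b -0.54. The signs of actc1b, tnnc2 and tnnt3b flip with library size alone and with rpl13. The abundant tropomyosin tpma, whose symbol is outside the pattern, was not called either (log2(FC) -0.13, adjusted p = 0.801, edgeR).

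Genes with the most similar pattern were sought for the most abundant member of each subfamily, as the smallest root mean square difference of centred log2 CPM over the 4 libraries, among genes of at least 10 CPM. Over 4 libraries this is a description of likeness alone. For tnni2a.4 the nearest gene was ckma, a muscle creatine kinase (difference 0.025), at 5592 and 2497 CPM in the nexn+/+ pools against 3712 and 4121 CPM in the nexn-/- pools, followed by si:ch73-367p23.2, ldb3b (a Z-disc protein), wnt4b and cdnf. For tnni2b.2 it was jph2, a junctophilin (difference 0.0411), followed by vimr2, capn3b, xirp2a and zgc:113232. For tnni1c the nearest were ch25hl1.1 (difference 0.026), unc45b (a myosin chaperone), mical2b, myl13 and fgf1b. None of these 15 genes was called, which follows largely from their choice, since the members they resemble were not called either.

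Markers of some other tissues also differed between the genotypes. The heart list had 10 of 12 tested genes called higher and 0 lower, with summed levels of 100 and 74.1 CPM in the nexn+/+ pools against 260 and 262 CPM in the nexn-/- pools. Liver markers had 10 of 12 called higher (845 and 608 against 2386 and 2389 CPM), red cell markers 12 of 13 (866 and 632 against 2573 and 2634 CPM), and photoreceptor markers 15 of 15 lower (10710 and 13140 against 4558 and 4801 CPM). Of all tested genes, 16.7% were called higher and 13.9% lower. How many list genes passed the filter on low counts only through a single genotype is not given. As for nearly all genes, none of the calls in these lists held with either nexn-/- library left out. Smooth muscle markers summed to 107 and 85.0 CPM against 111 and 110 CPM, with 0 of 7 called higher and 1 lower by edgeR and a median log2(FC) of 0.96. With library size alone or without nexn+/+ replicate 1, 5 of the smooth muscle markers were called higher, and without nexn+/+ replicate 2, 2 were. In none of these lists was a marker at 0 in every library. The lists held 0 of the 10 troponin I genes, while 3 fast, 4 slow and 2 heart markers were also thin filament partners. Which tissue the higher counts of tnni2b.1, tnni2a.1, tnni2a.2, tnni1b and tnni1d came from, and the part that a difference in tissue content or stage plays in them, was not tested.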

How the data were processed

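Whole-embryo RNA of 4 libraries (2 nexn+/+ and 2 nexn-/-) was analysed, grouped by the sample titles. The submitters' processing notes name STAR, RSEM and GRCz11, and tool versions and annotation release are not given in the sources used here. The authors deposited estimated counts per gene (not normalized), TPM and FPKM. Column headings carry the name of a single library in all 4 tables, so each table's library was taken from its deposition record. Of the values above 0, 92.0% to 93.2% were whole.

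Rounded counts were fitted by edgeR 4.0.16 in R 4.3.3 (filterByExpr, TMM, quasi-likelihood test, genotype as the only term). TMM factors lay between 0.88 and 1.07. Replicates differed by more than counting error (53.8 in nexn+/+ and 5.79 in nexn-/- as chi-square over its degrees of freedom). Standard errors were taken as log2(FC) divided by the root of the F statistic. Library totals lay between 19413597 and 21956272 counts, and members under 5 CPM carry a large counting error.

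Alternatives were DESeq2 1.42.0, limma-voom (limma 3.58.1), other scalings, filters and fold limits, a replicate block, effective lengths as offsets and each library left out. The genes named were the members, all other tnni genes, nexn, rpl13, the partners with the largest called changes (4 in each direction, at least 10 CPM), the 4 most abundant partners and the 5 nearest patterns per subfamily, with a pseudocount of 0.1 CPM. The limit of 10 CPM was set on the mean over both genotypes. The members and lists were chosen with earlier results of these data known. No gene or promoter sequence was used here.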

Additional observations from a re-analysis of the deposited data

How the results depend on the processing

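Over 10 alternatives of test, scaling, filter, block and length, tnni1b, tnni1d, tnni2a.1, tnni2a.2 and tnni2b.1 kept their call in all 10, with log2(FC) values of 0.86 to 1.46, 0.65 to 0.92, 2.33 to 2.61, 1.09 to 1.33 and 1.98 to 2.22. tnni2a.3 kept it in 7 and tnni2b.2 stayed uncalled in 10. With a limit of 1 on the log2(FC), 3 members were called, 3 higher and 0 lower, beside 15.5% of all genes in either direction. Shares of all genes by direction are not given at this limit. The number called lower was 0 with library size alone, with rpl13 and with effective lengths (1 member had an unadjusted p under 0.05 in each, by edgeR).

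The sign of uncalled genes depended on the setting. tnni2a.4 was at 0.0498 under limma-voom, 0.14 under library size alone, 0.0667 under the upper quartile, 0.23 under rpl13 and 0.0565 under the replicate block. actc1b was at 0.17, 0.19, 0.10, 0.27 and 0.18 in the same order, tnnc2 at 0.0276 and 0.11 and tnnt3b at 0.0457 and 0.13 with library size alone and rpl13. The median of the fast muscle list was 0.15 with library size alone. The median log2(FC) of all genes moved by 0.147 (library size), 0.103 (upper quartile) and 0.234 (rpl13).

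With each library left out, members called higher ranged from 0 to 8, called lower from 0 to 1, and in all from 0 to 9; partners called higher from 0 to 18 and lower from 0 to 5. Log2 ratios of sums ranged from 0.30 to 1.02 (tnni1), -0.46 to 0.63 (tnni2a) and 0.27 to 1.59 (tnni2b). Values that changed sign ranged from -0.49 to 0.61 (tnni2a.4), -0.20 to 1.41 (tnni2b.2), -0.47 to 1.00 (tnni4b.1), -0.32 to 0.73 (tnni4b.2), -1.07 to 0.31 (acta1b), -0.58 to 0.93 (actc1b), -0.61 to 0.50 (tnnc2), -0.62 to 0.58 (tnnt3b), -0.59 to 0.55 (tpma), -0.69 to 1.19 (acta1a), -0.34 to 0.81 (tnnt3a), -0.096 to 0.25 (tnnt1), -0.00203 to 1.40 (tnnt2d) and -0.51 to 0.77 (fast muscle median). The share of all genes called also changed with the library left out, so the counts of calls are no result about members or partners alone. The cause of the changes in sign was not tested.

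Whether the replicate numbers pair the pools is not stated. The correlation of the replicate differences was -0.0191. It cannot decide this, because the nexn+/+ pools differed far more than the nexn-/- pools (chi-square over its degrees of freedom 53.8 against 5.79). With the replicate block 6 members were called, as without it. Adding the tnni4 genes to the tnni1 sum, a choice made after seeing the data, gave a log2 ratio of 0.32, against 0.62.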

Other observations

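tnni3k, a cardiac kinase that shares the symbol prefix but is no troponin, had counts of 1 and 3 in the nexn+/+ pools against 24 and 20 in the nexn-/- pools. It passed the filter on low counts only through the nexn-/- pools, so its test gives no support and is left out. Both nexn-/- pools were higher, an order found in 36.4% of all tested genes. At 1 and 3 counts no fold change is given.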
